A study of Rattus norvegicus with 30 samples.

Results

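Signals of 7 enzymes that break down the aromatic amino acids tyrosine and tryptophan were followed in primary rat hepatocytes exposed to beta-naphthoflavone (BNF). The 7 genes were chosen with earlier results of these data known, so counts of them beside all genes are descriptions and not blind tests. They were named by symbol: Tat, Hpd, Hgd and Fah of the tyrosine route, and Tdo2, Kmo and Haao of the kynurenine route of tryptophan. They are 7 of the 14217 genes with a probe set of a single symbol, and each of the 7 had 1 such probe set. BNF is a synthetic flavone that binds the aryl hydrocarbon receptor (AhR), a transcription factor that switches on Cyp1a1 and other genes of foreign-compound metabolism.

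The hepatocytes came from male Sprague Dawley rats, were bought frozen, plated on collagen under a Matrigel overlay and dosed on day 3 of culture. The 6 groups were BNF at 0 (vehicle, 1% DMSO), 1 or 100 µM, each harvested 24 or 48 h after dosing. Every group held 5 arrays, 30 in all, and each array carried biotin-labelled RNA of a separate culture well. The labels do not tie wells to animals, give no ages and do not state the hormones of the medium, so p-values measure the spread between wells, and the number of arrays limits the precision.

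Tyrosine breakdown in the liver starts with tyrosine aminotransferase (Tat), whose gene is a classical target of glucocorticoids, and passes through hydroxyphenylpyruvate dioxygenase (Hpd), homogentisate dioxygenase (Hgd) and an isomerase to fumarylacetoacetate hydrolase (Fah), which releases fumarate and acetoacetate. Loss of FAH causes hereditary tyrosinaemia in humans and loss of HGD causes alkaptonuria. Tryptophan dioxygenase (Tdo2) opens the liver's kynurenine route, kynurenine monooxygenase (Kmo) and hydroxyanthranilate dioxygenase (Haao) lead on towards quinolinate and NAD, and kynurenine and kynurenic acid made on the way are known ligands of AhR.

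The promoters of 4 of the genes are shown because these were the genes whose 5 arrays at 100 µM and 48 h all lay below the 5 vehicle arrays. The sequences are those of RefSeq on the GRCr8 assembly, read 5′ to 3′ on the gene's strand, from 250 bases before the listed start and all 7 genes matched that table. The motif search covered those 250 bases for each gene, while a printed run ends where the annotated gene begins, which leaves 147 bases of Fah. Capitals mark matches to 3 short motifs searched on both strands: GCGTG, the core of AhR sites, AGAACA, one arm of a glucocorticoid receptor site, and GTTAAT, one arm of an HNF1 site. Fah, printed for chr1:147980709-147980855 on the minus strand, held GCGTG at bases -233 to -229 from the listed start. That start lies inside the annotated gene of Fah, so these positions do not count from the end of its printed run. The Haao window, chr6:16598075-16598324 on the plus strand, held AGAACA on its opposite strand at -145 to -140, where it reads TGTTCT. No match was found in the windows of Tat, chr19:54856354-54856603 on the plus strand, and Tdo2, chr2:169585587-169585836 on the minus strand. Sequence outside the 250 bases was not searched, so a missing match says nothing of sites farther away. Of the 3 genes not shown, Hpd held GTTAAT on the opposite strand at -154 to -149, and Hgd and Kmo held none of the 3.
Fah: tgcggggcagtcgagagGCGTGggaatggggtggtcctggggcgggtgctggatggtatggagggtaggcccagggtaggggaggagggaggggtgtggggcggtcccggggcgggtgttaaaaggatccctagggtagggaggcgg
Tat: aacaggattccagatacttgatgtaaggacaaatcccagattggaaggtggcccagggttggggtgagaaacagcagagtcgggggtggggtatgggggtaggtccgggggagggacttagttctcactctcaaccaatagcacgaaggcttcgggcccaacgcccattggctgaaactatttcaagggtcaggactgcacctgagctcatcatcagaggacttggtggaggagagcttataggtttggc
Tdo2: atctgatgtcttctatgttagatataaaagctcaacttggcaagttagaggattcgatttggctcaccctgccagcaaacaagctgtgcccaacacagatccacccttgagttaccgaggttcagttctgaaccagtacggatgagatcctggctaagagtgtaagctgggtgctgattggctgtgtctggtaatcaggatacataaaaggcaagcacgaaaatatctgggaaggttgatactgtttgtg
Haao: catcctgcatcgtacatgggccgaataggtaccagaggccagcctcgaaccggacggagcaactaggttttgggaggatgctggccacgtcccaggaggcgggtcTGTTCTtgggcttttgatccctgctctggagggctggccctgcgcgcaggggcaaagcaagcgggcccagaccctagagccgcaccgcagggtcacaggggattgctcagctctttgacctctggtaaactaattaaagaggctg
GCGTG occurred in 25.9% of 33469 promoters searched over the same 250 bases, AGAACA in 17.5% and GTTAAT in 6.5%, and a match is a run of letters and not a measured binding site.

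Of 8 measured AhR target and pathway genes, 6 were higher at 100 µM at 24 h and 5 at 48 h, and 4 and 3 were higher at 1 µM. Cyp1a1, the standard readout of the receptor, was 5.13-fold higher at 100 µM than in vehicle at 24 h and 5.68-fold higher at 48 h, and 3.83-fold and 2.49-fold higher at 1 µM. The cells carried hepatocyte transcripts, with all 9 measured markers of 10 listed above 863, the median signal of all genes, while 7 of 7 stellate cell markers, 5 of 5 endothelial markers, 4 of 6 Kupffer cell markers and 3 of 4 cholangiocyte markers lay below it. Median signals ran from 336.5 to 427.9 over the 30 arrays, and the ratio of the 3′ to the 5′ Gapdh control from 1.061 to 1.155.

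At 100 µM most of the enzymes were lower than in vehicle at both times: Tat, Fah, Hgd, Tdo2 and Haao fell at 24 and 48 h, Hpd fell at 48 h, and Kmo was called in neither direction (the panels of signal by array). At 24 h, 5 of the 7 were called lower than in vehicle and 0 higher, where 10.4% of all genes were called lower, 10.7% higher and 21.1% in either direction. At 48 h, 6 of the 7 were called lower and 0 higher, against 8.62% of all genes lower, 8.79% higher and 17.4% in either direction. The median log2 fold change of the 7 was -0.33 at 24 h and -0.44 at 48 h, beside 0.04 and 0.02 over all genes. At 1 µM it was -0.07 at 24 h and -0.05 at 48 h, beside 0.03 and 0.03 over all genes, and both doses were set against the same vehicle arrays. A gene was called where limma's adjusted p was under 0.05, with Benjamini-Hochberg adjustment over all 14217 genes, and a log2 fold change below 0 means a lower signal with BNF.

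**Figure D1:**
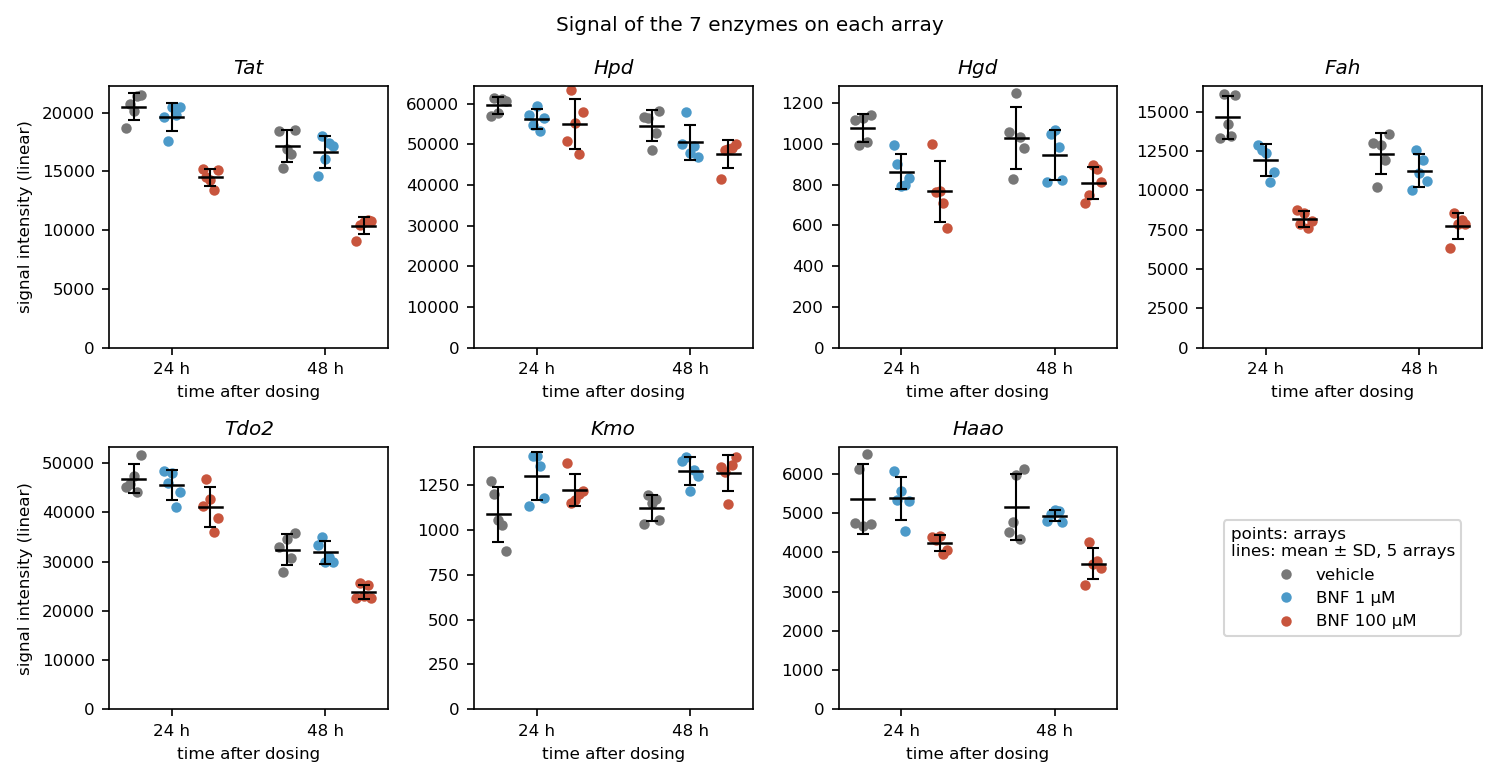
Signal intensity on a linear axis for each of the 7 genes, one panel per gene, with 1 point per array, grouped by time and dose, and lines for the mean ± SD of 5 arrays. The 100 µM points of Tat and Fah lie below the other points of their time, while those of Kmo do not lie lower than vehicle.

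Tat, the first enzyme of tyrosine breakdown, had signals of 15155, 14519, 14242, 13375 and 15108 at 100 µM and 24 h, against 18686, 20749, 20136, 21371 and 21491 in vehicle. All 5 BNF arrays were below all 5 vehicle arrays, and this held for 3 of the 7 genes, Tat, Fah and Haao, where 7.92% of all genes showed it. Tat was thus 1.41-fold lower (log2 fold change -0.50, SE 0.06, limma adjusted p = 2.52e-07). At 48 h the Tat arrays read 9088, 10444, 10706, 10835 and 10767 at 100 µM, against 18453, 15316, 16890, 16495 and 18554 in vehicle. Again no array of the groups overlapped, with 1 array, replicate 1 at 9088, below the other 4 of its group. Tat was 1.65-fold lower (log2 fold change -0.72, SE 0.06, limma adjusted p = 1.46e-10), and -0.68 without that array. At 1 µM Tat averaged 19592 ± 1181 against 20487 ± 1143 in vehicle at 24 h, and 16658 ± 1371 against 17142 ± 1372 at 48 h (SD, n = 5 each). Neither difference was called by limma, with 95% intervals of -0.19 to 0.06 and -0.17 to 0.08 on the log2 scale.

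Hpd, the second enzyme, showed small differences. It had 50708, 63260, 55316, 47635 and 57991 at 100 µM and 24 h, against 56866, 61400, 57800, 61193 and 60775 in vehicle. The groups overlapped, since 1 BNF array was the highest of the 10, and Hpd was not called (log2 fold change -0.12, limma adjusted p = 0.211). At 48 h the Hpd arrays read 41549, 48574, 48784, 49065 and 50111 at 100 µM, against 56730, 56397, 48614, 52889 and 58169 in vehicle. All 5 BNF arrays were below the vehicle median of 56397, but the groups overlapped. Hpd fell at 48 h by limma (log2 fold change -0.20, SE 0.07, adjusted p = 0.0346), a call lost in 7 of 18 alternative fits. Among these were the fits without BNF 100 µM replicate 1 (log2 fold change -0.15, limma adjusted p = 0.134) and without vehicle replicate 1, 2 or 5 (adjusted p = 0.0825, 0.0713 and 0.102). At 1 µM the log2 fold changes of Hpd were -0.08 at 24 h and -0.11 at 48 h, and neither was called.

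Hgd, which opens the homogentisate ring, had 998.5, 765.4, 769.2, 711.2 and 589.2 at 100 µM and 24 h, against 1119, 996.2, 1125, 1010 and 1144 in vehicle. Of the BNF arrays 4 were below every vehicle array and 1, replicate 1 at 998.5, lay just inside the vehicle range. Hgd was 1.42-fold lower (log2 fold change -0.51, SE 0.12, limma adjusted p = 0.00193). At 48 h its arrays read 709.7, 751.4, 894.3, 876.2 and 813.0 at 100 µM, against 1058, 828.1, 1251, 1036 and 980.2 in vehicle. The groups overlapped through the vehicle array at 828.1. The 48 h fall of Hgd (log2 fold change -0.34, SE 0.12, limma adjusted p = 0.0464) was lost in 11 of 18 alternative fits, among them those without BNF 100 µM replicate 1, 2 or 5 (adjusted p = 0.124, 0.0963 and 0.0712) and without vehicle replicate 1, 3, 4 or 5 (adjusted p = 0.0881, 0.156, 0.0803 and 0.0634). At 1 µM and 24 h Hgd read 995.2, 899.0, 791.4, 798.9 and 832.4, all below the lowest vehicle array of 996.2, as for 2.85% of all genes, yet it was not called by limma (log2 fold change -0.32, adjusted p = 0.129).

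Fah, the last enzyme of the route, showed the largest fall of the 7 at 24 h and the only call at 1 µM. At 100 µM and 24 h it had 8764, 7843, 8582, 7576 and 8045, against 13308, 16142, 14213, 13465 and 16053 in vehicle. The highest BNF array was well below the lowest vehicle array, and Fah was 1.79-fold lower (log2 fold change -0.84, SE 0.08, limma adjusted p = 2.63e-09). At 48 h Fah read 6354, 8570, 7827, 8128 and 7837 at 100 µM, against 12995, 10241, 12900, 11913 and 13606 in vehicle. There too no arrays overlapped, and Fah was 1.59-fold lower (log2 fold change -0.67, SE 0.08, limma adjusted p = 1.83e-07).

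The 1 µM arrays of Fah at 24 h had 12877, 12585, 12387, 10520 and 11188, against the same vehicle arrays of 13308 to 16142. All 5 were below vehicle, which with Hgd made 2 of the 7 genes without overlap. Fah was 1.23-fold lower (log2 fold change -0.30, SE 0.08, limma adjusted p = 0.0311), so that 1 of the 7 was called at this dose and time, against 2.4% of all genes lower and 4.3% in either direction. The call was lost in 5 of 18 alternative fits: without a mean-variance trend (adjusted p = 0.0602), without vehicle replicate 2 or 5 (adjusted p = 0.086 and 0.0915) and without BNF 1 µM replicate 4 or 5 (adjusted p = 0.109 and 0.0795). At 48 h Fah averaged 11254 ± 1032 at 1 µM, against 12331 ± 1316 in vehicle (SD, n = 5 each), and was not called (limma adjusted p = 0.568).

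Tdo2, which commits tryptophan to kynurenine, had 41211, 46713, 42795, 35916 and 38927 at 100 µM and 24 h, against 45235, 45733, 47446, 44184 and 51714 in vehicle. Again 4 BNF arrays were below every vehicle array and 1, at 46713, was inside the vehicle range. The difference was small (log2 fold change -0.19, SE 0.07, limma adjusted p = 0.0427), and the call was lost in 10 of 18 alternative fits. These included the fits without BNF 100 µM replicate 1, 4 or 5 (adjusted p = 0.0636, 0.16 and 0.102) and without vehicle replicate 2, 3 or 5 (adjusted p = 0.056, 0.0726 and 0.136). At 48 h Tdo2 read 22559, 25545, 23047, 25252 and 22681 at 100 µM, against 32866, 27868, 34668, 30768 and 35790 in vehicle. Every BNF array was below every vehicle array, and Tdo2 was 1.36-fold lower (log2 fold change -0.44, SE 0.07, limma adjusted p = 1.31e-05). At 1 µM the Tdo2 log2 fold changes were -0.04 at 24 h and -0.02 at 48 h, with 95% intervals of -0.18 to 0.10 and -0.16 to 0.12.

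Haao, which makes the precursor of quinolinate, had 4403, 4313, 4418, 3971 and 4071 at 100 µM and 24 h, against 4750, 6131, 4666, 6515 and 4723 in vehicle. The groups did not overlap, and the vehicle arrays lay at 2 levels, 3 near the BNF arrays and 2 well above. Haao was 1.25-fold lower (log2 fold change -0.32, SE 0.10, limma adjusted p = 0.0143), a call that was lost without either of the higher vehicle arrays, replicate 2 (adjusted p = 0.0565) or replicate 4 (adjusted p = 0.0674). At 48 h Haao read 3176, 4269, 3713, 3788 and 3605 at 100 µM, against 4535, 4772, 5992, 4350 and 6128 in vehicle. The groups again did not overlap, as for 4 of the 7 genes at 48 h, Tat, Fah, Tdo2 and Haao, against 6.68% of all genes. Haao was 1.38-fold lower (log2 fold change -0.47, SE 0.10, limma adjusted p = 0.000631). At 1 µM the Haao differences were within the spread of the arrays, 0.02 at 24 h and -0.05 at 48 h on the log2 scale.

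Kmo, which hydroxylates kynurenine, was called in neither direction at either dose. At 100 µM and 24 h Kmo had 1374, 1149, 1168, 1200 and 1220, against 1273, 1199, 1057, 1025 and 884.1 in vehicle, and at 48 h it had 1351, 1321, 1145, 1365 and 1407, against 1032, 1197, 1151, 1173 and 1055. At 48 h 4 of the 5 BNF arrays were above all vehicle arrays, and 1 was inside their range. The log2 fold changes were 0.18 (limma adjusted p = 0.181) and 0.23 (limma adjusted p = 0.0746), and the 48 h value was called higher in 3 of 18 alternative fits: without BNF 100 µM replicate 3 (0.28, adjusted p = 0.0361), with each array centred on its median (0.26, adjusted p = 0.0381) and with low-signal genes left out (0.23, adjusted p = 0.0453). At 1 µM Kmo had 1132, 1413, 1412, 1359 and 1180 at 24 h (log2 fold change 0.26, limma adjusted p = 0.095), a value called without vehicle replicate 1 (0.32, adjusted p = 0.0435). At 1 µM and 48 h Kmo had 1387, 1407, 1215, 1337 and 1300. These 5 arrays were all above the vehicle arrays, as for 1.55% of all genes, with a log2 fold change of 0.25 (limma adjusted p = 0.236). At that dose and time 0 of the 7 genes were called in limma and 1, Kmo, had an unadjusted p under 0.05, where 0.809% of all genes were called.

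**Figure D2:**
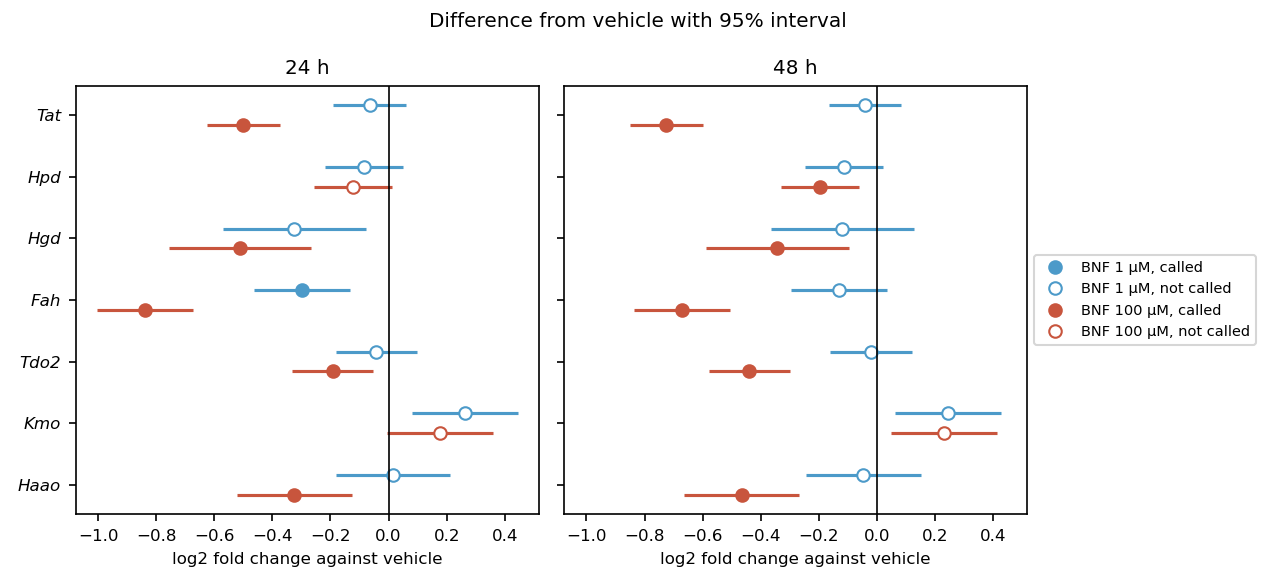
Log2 fold change against vehicle for each gene, with 95% intervals from the limma fit, at 24 h (left) and 48 h (right). Filled circles are called at an adjusted p of 0.05, and the filled 100 µM circles (5 at 24 h, 6 at 48 h) all lie left of 0, while the Kmo circles lie right of it and are open.

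The plot of log2 fold changes shows the 1 µM values of most genes close to 0 and those at 100 µM further left, and the doses were also compared with each other. At 24 h 3 of the 7 genes were lower at 100 than at 1 µM, against 4.57% of all genes lower and 7.72% in either direction. These were Tat (log2 fold change -0.44, limma adjusted p = 1.2e-05), Fah (-0.54, adjusted p = 2.65e-05) and Haao (-0.34, adjusted p = 0.0242), and their arrays did not overlap, as for 4.27% of all genes. The Haao call was lost without BNF 1 µM replicate 1 or 3 or BNF 100 µM replicate 4 or 5 (adjusted p at most 0.0923). At 48 h 4 of the 7 were lower at 100 than at 1 µM, against 7.39% of all genes lower and 14% in either direction: Tat (-0.68), Fah (-0.54), Tdo2 (-0.42) and Haao (-0.42). For these 4 the arrays did not overlap, as for 5.85% of all genes. Hpd, Hgd and Kmo did not differ by this test between the doses, with 95% intervals at 48 h of -0.22 to 0.05 for Hpd, -0.47 to 0.02 for Hgd and -0.20 to 0.17 for Kmo.

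Some of the same genes were lower in vehicle wells at the later time. In these wells Tdo2 averaged 32392 ± 3164 at 48 h, against 46863 ± 2957 at 24 h (SD, n = 5 each), with no overlap, a 1.45-fold fall (limma adjusted p = 7.23e-07). Tat in vehicle averaged 17142 ± 1372 at 48 h, against 20487 ± 1143 at 24 h, a 1.2-fold fall (limma adjusted p = 0.00268), also without overlap. Fah fell 1.19-fold between these times (adjusted p = 0.0304), a call lost without vehicle 24 h replicate 2 or 5, without vehicle 48 h replicate 2 or 4, with median centring, without the trend and in a fit of the vehicle groups alone (adjusted p at most 0.133). Thus 3 of the 7 were lower in vehicle at 48 h, against 8.6% of all genes lower and 17.2% in either direction, and 2 had groups without overlap, against 6.03%. The 100 µM arrays of Tdo2 followed the same order, 23817 ± 1459 at 48 h against 41112 ± 4062 at 24 h.

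Whether the effect of BNF differed between the times was tested directly, as the effect at 48 h minus that at 24 h. At 100 µM 0 of the 7 genes were called by limma, where 0.788% of all genes were, and 2 had an unadjusted p under 0.05: Tat (difference -0.22, 95% interval -0.40 to -0.05, adjusted p = 0.271) and Tdo2 (difference -0.25, 95% interval -0.45 to -0.05, adjusted p = 0.278). The Fah difference was 0.17, with an interval of -0.07 to 0.40. At 1 µM 0 of the 7 were called in limma and 0 had an unadjusted p under 0.05, where 0.0914% of all genes were called.

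Ordered by mean level over the 6 groups, Tat ran from vehicle at 24 h down through 1 µM at 24 h, vehicle at 48 h, 1 µM at 48 h and 100 µM at 24 h to 100 µM at 48 h, and of these neighbours only the last pair did not overlap. Fah was ordered vehicle at 24 h, vehicle at 48 h, 1 µM at 24 h, 1 µM at 48 h, 100 µM at 24 h and 100 µM at 48 h, with its break between the 1 µM and 100 µM groups. Tdo2 kept the 3 groups of 24 h above the 3 of 48 h, with no overlap between the times nor between 1 and 100 µM at 48 h. Haao broke, like Fah, between 1 µM at 48 h and 100 µM at 24 h, and neighbours overlapped throughout for Hpd, Hgd and Kmo. In Kmo the order ran with the 4 BNF groups above both vehicle groups.

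**Figure D3:**
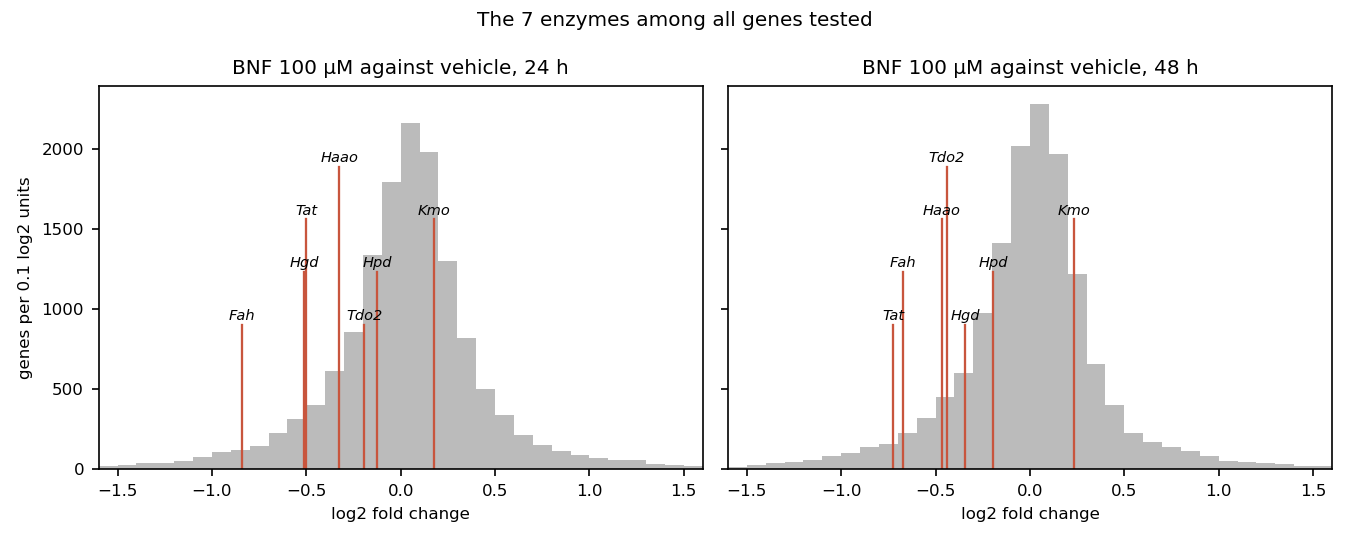
Histogram of log2 fold changes of the 14217 genes at 100 µM against vehicle, in bins of 0.1, at 24 h (left) and 48 h (right), with a line at the value of each of the 7 genes; line heights differ only to keep the names apart. The axis runs from -1.6 to 1.6, and genes beyond these limits are not in view. Fah at 24 h and Tat at 48 h lie in the lower tail, and Kmo lies right of the peak.

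Against the histogram of all genes the 7 were spread from the lower tail to the right of the centre. At 24 h 3.48% of genes had a lower log2 fold change than Fah, 8.33% a lower one than Hgd and 8.63% a lower one than Tat, while for Hpd the share was 28.6% and for Kmo 70.1%. At 48 h the shares were 4.9% for Tat, 5.56% for Fah, 9.97% for Haao and 10.8% for Tdo2. These are places in the distribution of this contrast and not tests.

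The rest of the tyrosine route was read from 9 listed genes, of which 6 were measured by a probe set of 1 symbol. At 100 µM and 24 h 3 were lower and 2 higher, and at 48 h 2 were lower and 1 higher, with a median log2 fold change of -0.23 at 24 h and -0.13 at 48 h. Gstz1, the isomerase that feeds Fah, averaged 6619 ± 518.6 at 100 µM against 10610 ± 558.0 in vehicle at 24 h (SD, n = 5 each), and was lower at both times (log2 fold change -0.68 and -0.66, limma adjusted p = 1.18e-07 and 2.47e-07). It also fell at 1 µM and 24 h (-0.33, limma adjusted p = 0.0149), a call lost without BNF 1 µM replicate 4 (adjusted p = 0.0619). Gchfr, the feedback regulator of the enzyme that starts tetrahydrobiopterin synthesis, fell by 0.85 at 24 h and by 0.92 at 48 h on the log2 scale. At 48 h it was, at 1 µM, the 1 gene of the list called lower (-0.49, limma adjusted p = 0.0223), a call lost without vehicle replicate 1, 2 or 4, without BNF 1 µM replicate 1 or 3 and when only the 10 arrays compared were fitted (adjusted p at most 0.098). Got1, an aspartate aminotransferase, fell by 0.32 at 24 h, which was not called when only the 10 arrays compared were fitted (limma adjusted p = 0.0569). Qdpr, which recycles the biopterin cofactor, rose at 100 µM by 0.23 at 24 h and 0.33 at 48 h on the log2 scale, and Gch1, the first enzyme of biopterin synthesis, rose by 0.31 at 24 h.

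Around Tdo2, Kmo and Haao, 14 of 16 listed genes of the kynurenine route and NAD synthesis were measured. At 100 µM 8 were lower at 24 h and 7 at 48 h, 0 were higher at either time, and the median log2 fold change was -0.44 at 24 h and -0.19 at 48 h. Kynu, kynureninase, which acts between Kmo and Haao, averaged 1158 ± 145.7 at 100 µM against 2406 ± 296.4 in vehicle at 24 h (SD, n = 5 each), a 2.08-fold fall (limma adjusted p = 4.92e-09), and was 2.02-fold lower at 48 h. Aadat, an aminotransferase that makes kynurenic acid, was 1.99-fold lower at 24 h and 1.72-fold lower at 48 h. Qprt, which turns quinolinate into the NAD precursor, was 1.82-fold lower at 24 h and 1.92-fold lower at 48 h, while its second probe set was called at 48 h only. Acmsd, which diverts the product of Haao away from quinolinate, was 1.49-fold lower at 24 h and 2.07-fold lower at 48 h. The 24 h Acmsd call did not hold when only its own groups were fitted, nor without vehicle replicate 5 or BNF 100 µM replicate 5 (limma adjusted p at most 0.0825). Thus genes on both sides of Kmo were lower at 100 µM while Kmo was called in neither direction (the heat map of both routes).

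Other probe sets of 3 further genes of this list did not all follow the one used. Afmid, the formamidase after Tdo2, was 1.74-fold lower at 24 h on its main probe set and lower on its other 2, but at 48 h it was 1.46-fold lower on the main one alone and not called on the others (log2 fold change -0.34 and -0.05). Gcdh, glutaryl-CoA dehydrogenase at the end of tryptophan oxidation, was 1.51-fold lower at 24 h on its main probe set and not called on the other 2 (-0.22 and 0.29), and with the 3 averaged the call was lost (adjusted p = 0.564). At 48 h Gcdh was called lower on its main probe set (-0.19) and on the second (-0.39, limma adjusted p = 0.0123) but not on the third. The call on the main one was lost in 7 of 18 alternative fits, among them those without BNF 100 µM replicate 1 or vehicle replicate 1, 3 or 5 (adjusted p at most 0.146). Naprt, which starts NAD synthesis from nicotinic acid, was lower on its main probe set at 24 h (-0.55) and 48 h (-0.37) and not called on its second (-0.24 and -0.10). Its 48 h call was also lost without BNF 100 µM replicate 3 and with its probe sets averaged (adjusted p at most 0.0657). With the probe sets of each gene averaged, 4 genes of this list were called at 48 h in place of 7. Ido1, the dioxygenase of immune cells that shares the reaction of Tdo2, had mean signals of 29.4 to 167.1 over the groups and was not called.

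At 1 µM 3 of these 14 genes were lower at 24 h, Afmid (log2 fold change -0.39), Aadat (-0.34) and Gcdh (-0.27), and 0 were called at 48 h by limma. The Aadat call was lost in 13 of 18 alternative fits, among them those without vehicle replicate 1, 2, 4 or 5 and without BNF 1 µM replicate 2, 3, 4 or 5 (limma adjusted p at most 0.154). The Afmid call was lost in 7, among them those without vehicle replicate 1, 2 or 5 and without BNF 1 µM replicate 3 or 4 (adjusted p at most 0.0803). The Gcdh value was 0.24 with its probe sets averaged.

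**Figure D4:**
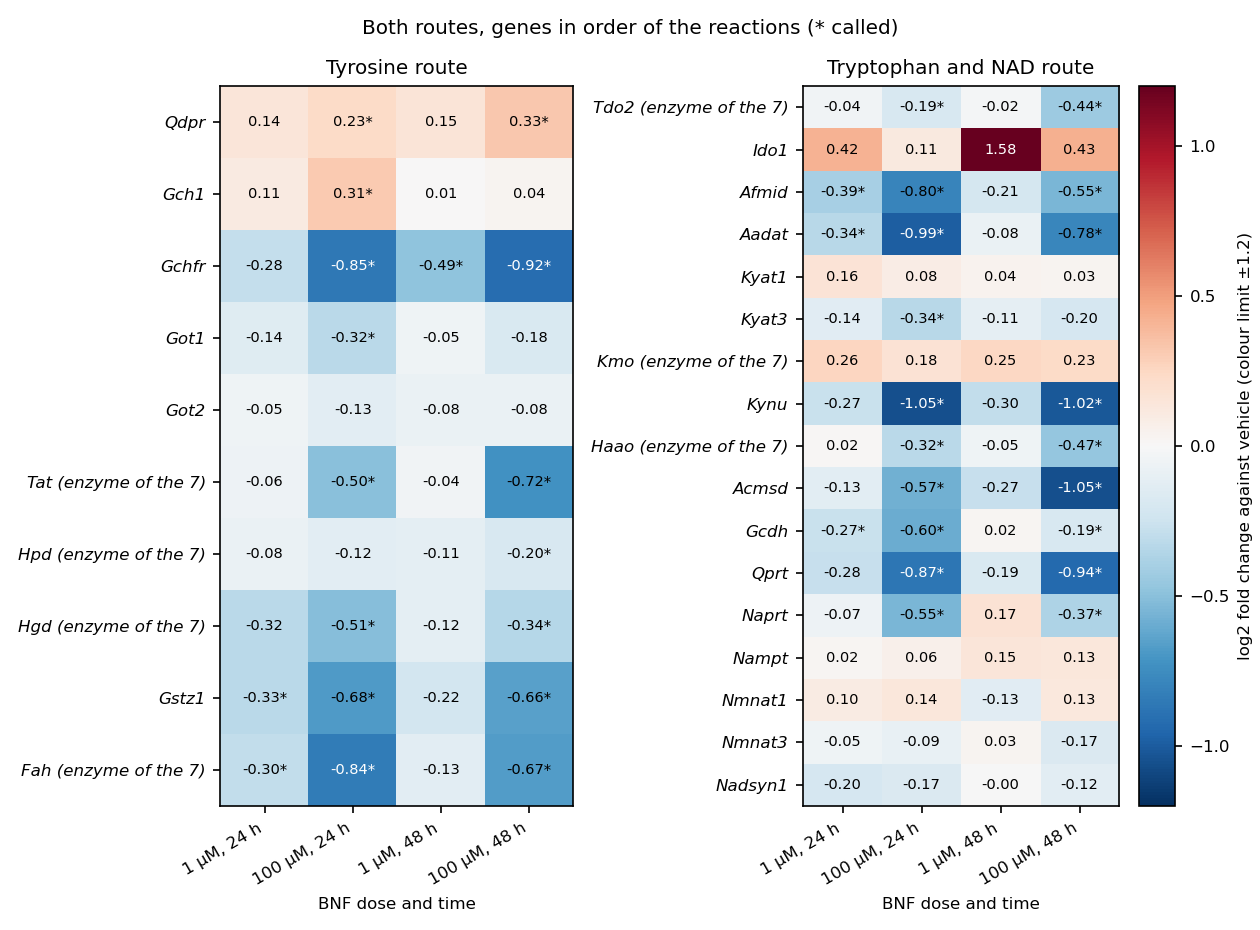
Log2 fold change against vehicle at 1 and 100 µM, 24 and 48 h, for the measured genes of the tyrosine route (left) and of the tryptophan and NAD route (right), in order of the reactions; blue is lower with BNF, red higher, a star marks a call, and the colour scale stops at 1.2 on either side. Stars on blue cells are most frequent in the 100 µM columns, and the Kmo row is pale red without a star.

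Both amino acids also feed amine synthesis through aromatic amino acid decarboxylase, Ddc, and the monoamine oxidases Maoa and Maob break amines down. These were the 3 measured of 4 listed genes. At 100 µM and 48 h all 3 were lower: Ddc by 0.61, Maoa by 0.46 and Maob by 0.33 on the log2 scale. At 24 h 1 was lower, Maob (log2 fold change -0.29, limma adjusted p = 0.00187), while Ddc had -0.39 (adjusted p = 0.0541). Ddc was also called lower at 1 µM and 24 h (-0.50, limma adjusted p = 0.0417), but not on its second probe set, and the call was lost in 8 of 17 alternative fits, among them those without vehicle replicate 1, 2 or 4 and without BNF 1 µM replicate 3, 4 or 5 (adjusted p at most 0.731, with probe sets averaged). Of the 3 genes 0 were called at 1 µM and 48 h.

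Since Tat and Tdo2 are textbook glucocorticoid-induced liver genes, genes linked to the hormone were read beside them. Of 10 listed, 8 were measured, and 6 were lower and 0 higher at 100 µM at each time. Over all genes 10.4% were called lower at 24 h and 8.62% at 48 h. The median log2 fold change of the 8 was -0.41 at 24 h and -0.44 at 48 h. Tsc22d3, a glucocorticoid-induced leucine zipper protein, fell by 0.66 at 24 h and by 0.50 at 48 h on the log2 scale. Fkbp5, a hormone-induced partner of the receptor, fell by 0.45 and by 0.51, and Sgk1, a hormone-induced kinase, by 0.53 and by 0.62. Nr3c1, the receptor itself, was 1.29-fold lower at 24 h and 1.30-fold lower at 48 h, with its second probe set not called. Pck1, the gluconeogenic carboxykinase, was 1.65-fold lower at 24 h and 1.51-fold lower at 48 h, where the call was lost without BNF 100 µM replicate 1, 2 or 3, without vehicle replicate 3 or 4, and when only the 10 arrays compared were fitted (limma adjusted p at most 0.0884). Dusp1, a phosphatase, fell by 0.22 and by 0.20. Igfbp1 and Per1, the others measured, were called at neither time. Igfbp1 averaged 74617 ± 9416 at 100 µM against 74289 ± 6087 in vehicle at 24 h (SD, n = 5 each). At 48 h the Igfbp1 means were 70250 at 100 µM and 73240 in vehicle. Per1 averaged 791.0 ± 187.4 at 100 µM against 998.8 ± 223.3 in vehicle at 24 h, and 1088 against 1079 at 48 h. At 1 µM 2 of these genes were lower at 24 h, Tsc22d3 (-0.18) and Sgk1 (-0.31), and 0 at 48 h. The Tsc22d3 call was lost without vehicle replicate 2, 4 or 5 or BNF 1 µM replicate 3, 4 or 5, and the Sgk1 call without vehicle replicate 1, 2 or 5 or BNF 1 µM replicate 3 (limma adjusted p at most 0.0771 and 0.071). Whether these genes and the 7 enzymes share a cause was not tested.

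Of 7 listed liver transcription factors 6 were measured, and at 100 µM 3 were lower at both times. Foxa1 was 2.07-fold lower at 24 h and 2.13-fold lower at 48 h, and Foxa3 1.62-fold and 1.47-fold. Both had mean signals below the median of all genes, and their calls at 100 µM held in the 17 alternative fits that contained them. Hnf4a fell by 0.39 at 24 h and by 0.22 at 48 h on the log2 scale, with neither of its other 2 probe sets called at either time. Cebpa rose 1.28-fold at 48 h on its main probe set. Its other probe sets gave log2 fold changes of 0.30 and 0.36, called higher, and 0.18 and 0.43, not called. At 1 µM Hnf4a (-0.22) and Foxa3 (-0.39) were lower at 24 h, and 0 were called at 48 h. The Hnf4a call was lost without vehicle replicate 1, 2, 4 or 5 or BNF 1 µM replicate 2, 4 or 5, and the Foxa3 call without vehicle replicate 1, 4 or 5 or BNF 1 µM replicate 3, 4 or 5 (limma adjusted p at most 0.854 and 0.128 over all alternatives).

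Some general hepatocyte transcripts were also lower at 100 µM. Of 9 measured hepatocyte markers 3 were lower at 24 h (Apob, Asgr1 and Cps1) and 5 at 48 h (the same 3, Serpina1 and Fgb), and 0 were higher. The others were not called at either time, among them Alb, which encodes albumin, with log2 fold changes of -0.0009 at 24 h and -0.08 at 48 h, and Ahsg with 0.02 and 0.0042. The second probe set of Apob was called at neither time, nor were the other 2 of Fgb at 48 h. Their summed signal was 309681 to 382151 at 100 µM against 395280 to 470349 in vehicle at 48 h, without overlap, and 396270 to 512728 against 453706 to 509730 at 24 h, with overlap. Fewer hepatocytes and less RNA of these genes per cell cannot be told apart here, and the part of either in the falls of the 7 enzymes was not tested. On the probe sets used, markers of other cells were called higher in 0 cases: at 100 µM 0 of 6 Kupffer cell markers were called at either time, 2 of 7 stellate cell markers were lower at 24 h and 1 at 48 h, and 1 of 5 endothelial and 1 of 4 cholangiocyte markers were lower at 48 h. Second probe sets of the endothelial markers Kdr (log2 fold change 0.71, limma adjusted p = 0.0346) and Lyve1 (0.76, adjusted p = 0.03) were called higher at 48 h, where the probe sets used gave -0.46 and 0.30 and were not called. At 48 h the summed signal of the Kupffer cell markers was 2559 to 3272 at 100 µM against 3035 to 3496 in vehicle, that of the stellate cell markers 2338 to 3412 against 2261 to 3128, and that of the endothelial markers 586.8 to 1180 against 859.3 to 1234. The cholangiocyte sum was 8882 to 9709 against 11286 to 13007, without overlap, but it was nearly all the signal of Epcam, 9194 ± 288.4 against 11792 ± 692.6 (SD, n = 5 each). Krt19, Krt7 and Spp1 had mean signals of at most 82.5 in every group and were not called, and the median log2 fold change of the 4 genes at 48 h was 0.57. At 24 h the sums were 3578 to 4769 against 3576 to 4322 for Kupffer cells, 2177 to 2958 against 2438 to 3294 for stellate cells, 1333 to 1804 against 923.9 to 1434 for endothelial cells and 10075 to 11098 against 10086 to 11417 for cholangiocytes.

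One array stood low in much of this. BNF 100 µM replicate 1 at 48 h was the lowest of its group for 6 of the 7 enzymes, all but Kmo, and had the lowest hepatocyte marker sum, 309681, where the other 4 had 365088 to 382151. That array also had the lowest summed signal of the AhR genes, 102025, where the other 4 had 127964 to 137951. Its sum of the glucocorticoid-linked genes was the lowest too, 90124, where the other 4 had 106375 to 112280. So were its sums of the tyrosine list (72485), the tryptophan list (30396), the amine branch (7538) and the cholangiocyte markers (8882). This array was not the lowest for the sums of the transcription factors or of the Kupffer, stellate and endothelial cell markers. Without it Tat (log2 fold change -0.68), Fah (-0.60), Tdo2 (-0.42) and Haao (-0.41) were still called lower, and Hpd and Hgd were not. At 24 h BNF 100 µM replicate 4 was the lowest of its group for 5 of the 7 and had the lowest marker sum, 396270. Without that array Tdo2 was not called, and Tat, Hgd, Fah and Haao were.

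Genes whose pattern over the 6 group means was most like that of each called enzyme were taken from the 7107 genes above the median signal, by the smallest root mean square difference of the centred log2 means. For Tat these were Hrk (0.038), Fga (0.058) and Tpst1 (0.059), where the Tat means span 0.98. For Fah they were Bphl (0.042), Atoh8 (0.049) and Ddah1 (0.051), and for Tdo2 Tnfsf12 (0.033), Msra (0.055) and Fgl1 (0.057). Hgd was nearest to Reep6 (0.025), Nnt and Parva, Haao to Syne1 (0.023), Spidr and Mdp1, and Hpd to Dhrs4 (0.014), Ifi27 and Zfp512. The likeness is over 6 means only, and a gene with small differences such as Hpd lies near many others.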

How the data were processed

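Expression was measured on 30 Affymetrix rat arrays, 5 in each of 6 groups. Each deposited value is an intensity on a linear scale for 1 probe set. Per the submitters' processing notes the tool was MAS5. Its version, its background settings and any filter were not given in the sources used here. The arrays came already scaled, with a trimmed mean (2% cut at each end) of 1500.5 to 1500.6, so that a shift common to nearly every gene would be removed.

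Of 31099 probe sets 57 controls were left out, and the platform annotation gave 20826 of the others 1 symbol, 436 several and 9780 none. Gene numbers of 20758 matched the RefSeq gene table of assembly GRCr8, used for names and promoter sequences. Where several single-symbol probe sets named a gene, the brightest by mean log2 signal was used, which left 14217 genes. There were 0 columns of other samples and 0 identical pairs of arrays. The deposited intensities were taken to log2 without a constant and fitted in R 4.3.3 with limma 3.58.1, as 1 mean per group over all 30 arrays (24 residual degrees of freedom), eBayes with a mean-variance trend and Benjamini-Hochberg adjustment within each contrast, called at 0.05. The model was tested on simulated data. Folds are 2 to the power of the absolute log2 fold change.

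The named genes were the 7 enzymes, up to 6 called genes of each other list with the smallest adjusted p, and the 3 genes most like each called enzyme. Ido1, Naprt, Igfbp1, Per1 and the cell markers named were chosen after their values were seen. Marker lists of hepatocytes, Kupffer, stellate and endothelial cells and cholangiocytes were counted and summed. The members and lists were chosen with earlier results of these data known. Alternatives were median centring, quantile normalization, leaving out low-signal genes, fits of the compared groups alone, no trend, averaging probe sets, the array number as a covariate, a floor of 100 and leaving out each replicate, 18 for each contrast of a dose with vehicle.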

Additional observations from a re-analysis of the deposited data

Results flagged for a closer look

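Among the 42 combinations of an enzyme and a group, 2 had an array far from the other 4 of its group by Dixon's test, about as many as chance gives at 1 in 20 groups. Tat had 9088 on BNF 100 µM replicate 1 at 48 h, where the other 4 arrays had 10444 to 10835. Hpd had 41549 on the same array, where the other 4 had 48574 to 50111. Without this array the log2 fold change of Tat at 100 µM and 48 h was -0.68 and remained called by limma, while that of Hpd was -0.15 and was not called (limma adjusted p = 0.134).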

How the results depend on the processing

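Over 18 alternatives each, the falls at 100 µM of Tat, Hgd and Fah at 24 h and of Tat, Fah, Tdo2 and Haao at 48 h kept direction and call in limma, with log2 fold changes of -0.53 to -0.47, -0.61 to -0.42 and -0.87 to -0.80 at 24 h and of -0.76 to -0.68, -0.74 to -0.60, -0.49 to -0.40 and -0.52 to -0.40 at 48 h. The number of the 7 enzymes called at 100 µM against vehicle was 3 to 5 at 24 h and 4 to 7 at 48 h over the fits that left out 1 replicate, with the 3 reached without vehicle 24 h replicate 2. At 1 µM and 24 h the number was 0 to 2 over such fits and 0 without a mean-variance trend. It was 2 to 3 for 100 against 1 µM at 24 h and for vehicle over time, 4 in every such fit for 100 against 1 µM at 48 h, and 0 for 1 µM at 48 h and for both differences between times. Among the 7 enzymes signs turned only for values that were never called. Haao at 1 µM and 24 h was 0.02, but -0.0024 with median centring and -0.0308 to 0.09 over replicates left out. Tdo2 at 1 µM and 48 h was -0.02, but 0.0397 with quantile normalization and -0.0737 to 0.0166 over replicates left out. Tat and Haao at 1 µM and 48 h ran from -0.0813 to 0.0057 and from -0.1047 to 0.0188 over replicates left out. Hpd was also called at 100 µM and 24 h with quantile normalization (-0.13, adjusted p = 0.000355). The counts in the other lists were put through the same alternatives, a choice made after seeing the data. They moved by over 1.5 times in 6 cases: the tryptophan list at 48 h as given above, the amine branch at 24 h (2 in place of 1 without the trend or without vehicle replicate 3 or 5), and the transcription factors with low-signal genes left out, where 1 was called at 24 h and 2 at 48 h in place of 3 and 4. That last fit did not contain Foxa1 and Foxa3, so their calls were removed by the filter and not lost. Over all genes, 30 were called at 1 µM and 48 h in a fit of those groups alone against 115 in the fit of all arrays, with 46 to 153 over replicates left out. With 1 µM at 24 h 406 were called without BNF 1 µM replicate 3, against 612. The difference between times at 100 µM had 112 calls and 174 with low-signal genes left out. At 1 µM it had 13 calls, with 0 under median centring, 20 under quantile normalization, 5 with its own groups alone, 4 without the trend, 1 with probe sets averaged and 2 to 22 over replicates left out. The labels give no replicate numbers, but the array numbers in the titles run in 5 sets with 1 array of each group. Deviations of arrays of a set correlated little across genes, at -0.038 to 0.111 over the 7 pairs of groups. The median correlation was 0.006 within sets and -0.001 between sets. Of 30 arrays 12 correlated best with an array of their own set, a larger share than such arrays made up of those compared. With the set as a replicate block, chosen after seeing the data, the 7 enzymes had 5 and 6 calls at 100 µM, 1 and 0 at 1 µM, 3 and 4 between the doses and 3 for vehicle over time, and the same enzymes were called as without the block. With 5 arrays a group, small differences such as those of Hpd and Tdo2 at 24 h lie near the limit of the test.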
